A study of Mus musculus with 146 samples.

Results

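Pou5f1, Nanog, Sox2, Sall4, Lin28a, Utf1, Dppa2, Dppa3, Dppa4 and Dppa5a are 10 genes known for their work in pluripotent cells. They were taken by name from the 52605 gene symbols measured in single germ cells of the newborn mouse ovary, and all 10 were found. The germ cells came from ovaries (n = 5) of newborn female C57/BL6J pups of one litter, aged 0.5 days (P0.5), and the labels name no treatment or genetic change. The ovaries were digested with trypsin, germ cells were picked by mouth pipette, and the mRNA of each was copied from its poly(A) tail by Smart-seq2, with ERCC spike-ins, and sequenced in 125-base paired reads. Before sequencing, the study screened each cDNA for Vasa (Ddx4) and Foxl2 and dropped Foxl2-positive ones. The germ cell identity of the cells and a low level of Foxl2 were therefore selected. The labels name no animal or plate for a cell. All cells are therefore 1 sample, and the differences below carry no test and no p-value. Each is a description of these cells, with intervals that cover counting error only.

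In the early embryo, Pou5f1 (Oct4), Sox2 and Nanog are the transcription factors at the core of the pluripotency network, and Sall4 and Utf1 are nuclear proteins that work beside them. Lin28a is an RNA-binding protein that blocks maturation of let-7 microRNAs. The Dppa genes were named for their expression pattern shared with Pou5f1. Primordial germ cells use much of this network and shut most of it down as they enter meiosis, whereas growing oocytes store several of the same mRNAs for the embryo. The newborn ovary lies between these states, when germ cells leave their cysts and become enclosed in primordial follicles.

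Of the 146 libraries, 14 formed 7 pairs that were nearly the same profile. Across 11330 genes with a mean above 5 TPM (transcripts per 1000000, corrected for transcript length), log2(TPM + 1) correlated within these pairs at Pearson's r from 0.984 to 0.993, and the next highest r of any 2 libraries was 0.781. The labels do not say that a cell was sequenced more than once. Each pair was averaged and counted as 1 cell. Each of the 10 genes was detected (1 TPM or more) either in both libraries of a pair or in neither, in 7 of 7 pairs. Dppa3 read 269 and 273 TPM in the libraries of one pair, 393 and 384 in another, and 33.99 and 22.69 in the pair that differed most. Utf1 stood at 38.3 and 40.5 TPM, Pou5f1 at 27.1 and 29.4, Lin28a at 8.93 and 8.69 and Sall4 at 4.37 and 5.13 TPM in the single pair in which each was detected. The pairs were chosen by the likeness of their whole profiles, so this agreement is not a separate result about the 10 genes. Per pair, 4431 to 5261 genes had 30 TPM or more in at least 1 library. Of these, only 7 to 36 were detected in 1 library and not in the other. Both libraries of a pair may have been made from the same amplified cDNA. A further library held no Ddx4 RNA and was left out.

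**Figure D1:**
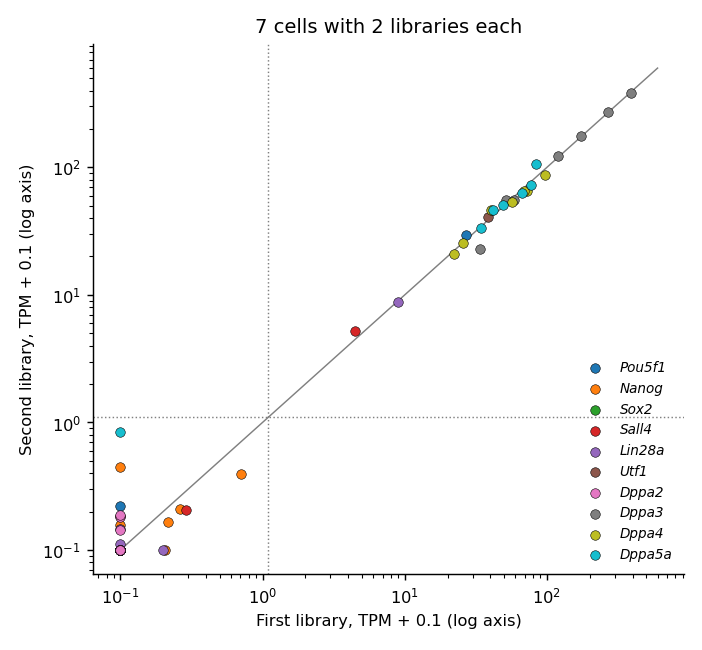
TPM + 0.1 of the 10 genes in the first (x axis) and second (y axis) library of 7 cells, both on log axes; each point is 1 gene in 1 cell and the dotted lines mark detection at 1 TPM. No point lies in a quadrant where only 1 library passed 1 TPM, and Dppa3 covers the range from 22.7 to 393 TPM.

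The cells were grouped by levels of other genes, Sohlh1, a transcription factor needed for follicle formation, and Zp3, a protein of the zona pellucida. Sohlh1-low cells had both genes below 10 TPM (n = 11), Sohlh1-positive Zp3-low cells had only Sohlh1 at 10 TPM or more (n = 80), and Zp3-positive cells had Zp3 at 10 TPM or more (n = 47). These are ranges of level, not cell types, and 4 cells had Zp3 and 2 cells had Sohlh1 between 5 and 20 TPM. The cells were also placed in an order, the first principal component (37.4% of the variance) of 19 oocyte genes that are not among the 10. Sohlh1 and Zp3 are among the 19, so the order and the classes are not independent. The order was divided into 5 bins of 28, 28, 28, 27 and 27 cells. All 11 Sohlh1-low cells fell in the first bin and 27 of the 47 Zp3-positive cells in the last. A cell had 4103140 to 17440700 reads assigned to genes, with class medians of 9615240, 9003160 and 9962850. Spike-ins held a median of 11712.5, 11918 and 7568 TPM, and 6692, 7029.5 and 7952 coding genes reached 1 TPM. Germ cell markers summed to at least 553 TPM in every cell, while the 7 pregranulosa markers had medians from 0.334 to 0.386 TPM per class and at most 81.6 TPM in any cell. Stroma markers reached 794 TPM in 1 Sohlh1-positive Zp3-low cell. Blood or endothelial markers reached 165523 TPM in 1 Sohlh1-low cell. The part of depth, RNA amount or foreign RNA in the differences below was not tested.

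At a limit of 1 TPM the 10 genes fell into 3 levels. Dppa3, Dppa5a and Dppa4 were detected in 89.1%, 86.96% and 79.7% of all germ cells. Sall4, Lin28a and Pou5f1 were detected in 40, 38 and 36 cells, which is 28.99% (95% Clopper-Pearson interval 21.6 to 37.3%), 27.5% (20.3 to 35.8%) and 26.1% (18.99 to 34.2%). Nanog was detected in 9 cells, Dppa2 in 8, and Sox2 and Utf1 in 1 each. With a limit of 0.1 TPM Nanog was in 55 cells, beside 50, 47 and 48 for Sall4, Lin28a and Pou5f1, so its place depends on the limit. A cell held a median of 2 of the 10 genes among Sohlh1-low cells, 3 among Sohlh1-positive Zp3-low cells and 5 among Zp3-positive cells, and no cell held more than 7.

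**Figure D2:**
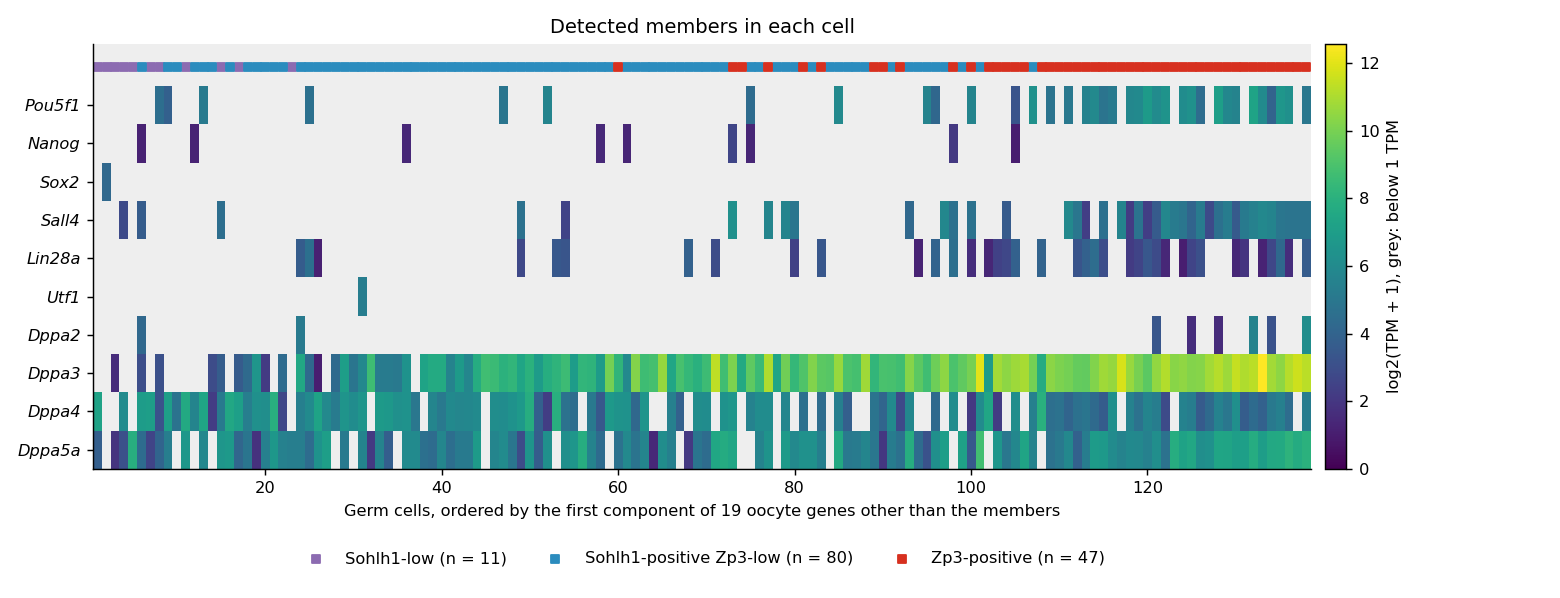
Each column is 1 germ cell in the order of 19 other oocyte genes (x axis) and each row is 1 gene; colour gives log2(TPM + 1), grey is below 1 TPM, and the strip on top gives the class. Dppa3, Dppa4 and Dppa5a fill most columns, and Pou5f1, Sall4 and Lin28a crowd into the last 27 columns, where 21, 25 and 19 cells had them.

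Of the 7 genes whose mean reached 1 TPM in one or both classes, 3 (Pou5f1, Lin28a and Dppa3) were at least 1.5-fold higher and 1 (Sox2) was lower in Sohlh1-positive Zp3-low than in Sohlh1-low cells, where 32.1% of 12232 coding genes were higher and 21.9% lower. The calls of Pou5f1, Lin28a and Sox2 ended with a mean of logs (0.24, 0.43 and -0.38) and with medians, and that of Sox2 also without 1 cell. Between Zp3-positive and Sohlh1-positive Zp3-low cells, 6 of 7 were higher (Pou5f1, Sall4, Lin28a, Dppa2, Dppa3 and Dppa5a), with Dppa4 between the limits, where 17.7% of 12349 coding genes were higher and 28.3% lower. Lin28a and Sox2 at the first of these comparisons, and Dppa2 at the second, reached 1 TPM only in the class where they are high, so that filter fixed their direction, and both counts are descriptions. These comparisons are called the first and the second step below, and they share the Sohlh1-positive Zp3-low cells. Ratios are of mean TPM + 1, and the range in parentheses after a log2 ratio is that found when each cell was left out in turn.

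**Figure D3:**
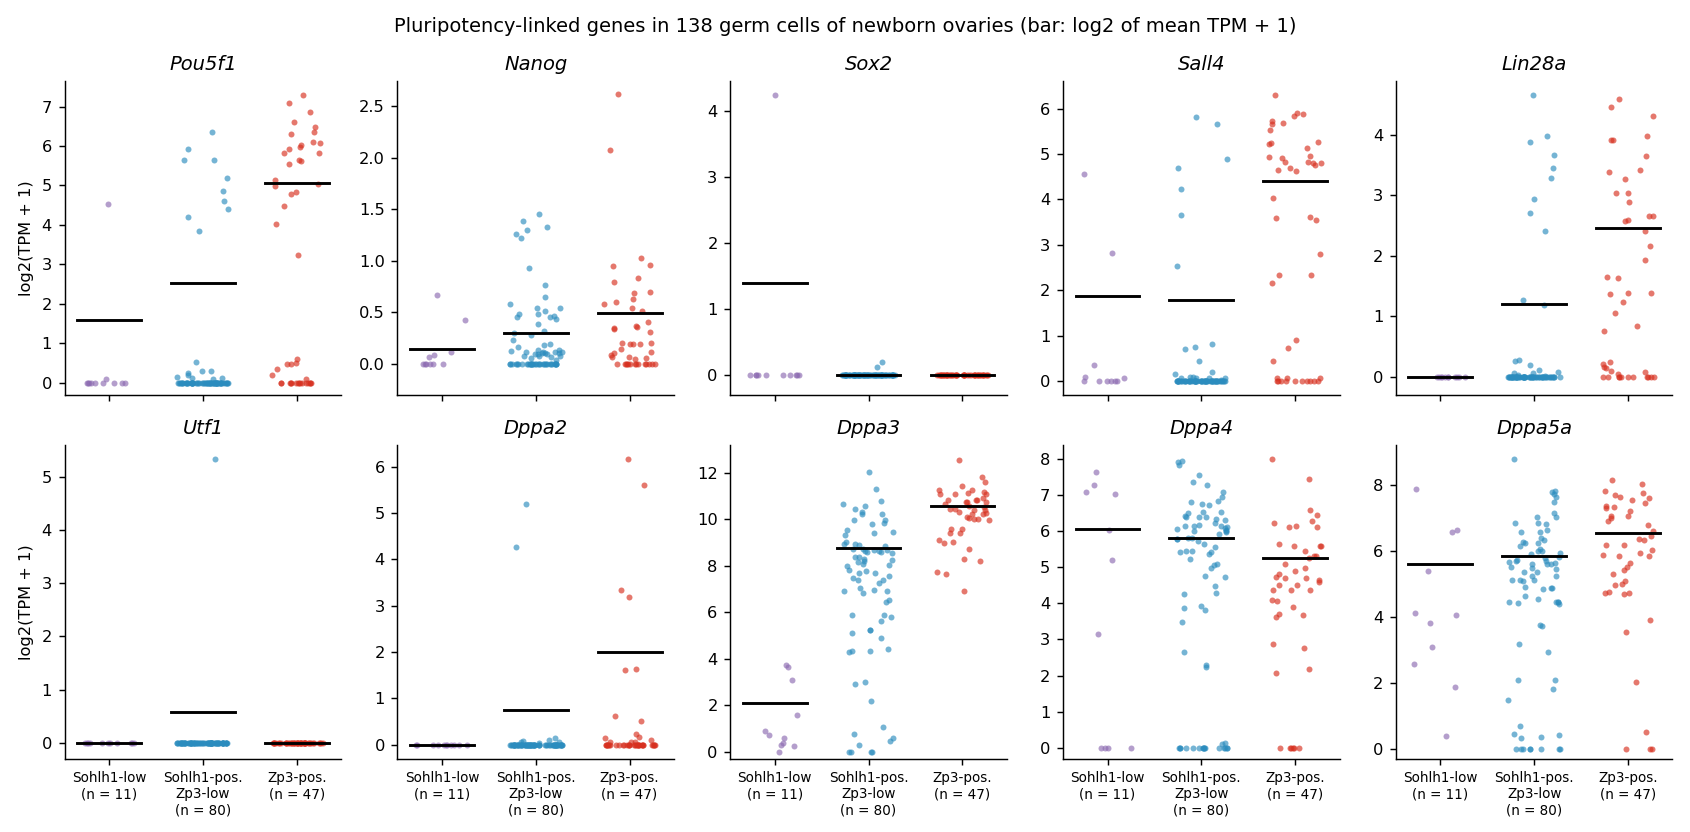
Level of each of the 10 genes, as log2(TPM + 1), in every cell of the 3 classes; points are cells and the black bar is log2 of the mean TPM + 1, and each panel has its own y axis. Pou5f1, Sall4 and Lin28a are split into cells near 0 and cells well above it, and only Dppa3 is above 100 TPM in all 47 Zp3-positive cells.

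A pair of sequence sets is shown beside these results. The start regions of Pou5f1 and Lin28a are given because both were often found in the same Zp3-positive cells. The Sall4 exon junctions are given because the form of Sall4 that the estimates point to was not the longest one. Any part of these sequences in the levels was not tested. Pou5f1 spans chr17:35506018-35510772 on the plus strand and Lin28a chr4:134003330-134018841 on the minus strand (GRCm38, the same assembly as mm10). The windows run from 250 bases before the RefSeq start to 50 after it, at chr17:35505782-35506081 for the first Pou5f1 start and chr4:134018767-134019066 for Lin28a (GRCm38.p6), and capitals mark E-boxes (CANNTG), the letters bound by basic helix-loop-helix factors such as Sohlh1.
Pou5f1, first start, plus strand: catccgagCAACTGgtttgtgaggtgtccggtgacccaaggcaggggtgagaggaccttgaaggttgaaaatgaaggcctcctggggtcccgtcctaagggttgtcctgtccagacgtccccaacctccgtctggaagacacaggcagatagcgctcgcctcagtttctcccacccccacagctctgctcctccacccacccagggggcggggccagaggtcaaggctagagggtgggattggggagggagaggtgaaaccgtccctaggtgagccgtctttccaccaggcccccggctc
Lin28a, minus strand: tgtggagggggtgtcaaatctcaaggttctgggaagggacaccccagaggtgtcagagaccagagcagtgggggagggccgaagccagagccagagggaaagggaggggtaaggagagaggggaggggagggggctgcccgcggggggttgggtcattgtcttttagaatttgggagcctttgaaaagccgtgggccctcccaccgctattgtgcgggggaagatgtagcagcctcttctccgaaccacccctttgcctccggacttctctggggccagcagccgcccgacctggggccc
The Pou5f1 window held 1 E-box, at position -242 (the start base is 1 and the base before it -1), and the Lin28a window held none. On both strands, 72.3% of 32851 windows of this length held an E-box. GGGCGG occurred once in each window, at -45 in Pou5f1 and at 33 in Lin28a, and in 35.7% of all windows. TAATTG and TAATTA, the letters of homeodomain factors such as Nobox, were in neither window and in 8.0% and 5.29% of all. The GC content was 62.7% and 63.3%, beside a median of 52.7%. RefSeq gives Pou5f1 a second start, whose window at chr17:35508557-35508856 differed, with 2 E-boxes, no GGGCGG and a GC content of 45.7%. Start regions were also in the tables for Nanog, Sox2 and Utf1, not for Sall4, Dppa2, Dppa3, Dppa4 or Dppa5a.

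In these cells Pou5f1 was either well above 1 TPM or below it, and missed capture of its mRNA was not tested. It was detected in 1 of 11 Sohlh1-low cells (9.09%, 0.23 to 41.3%), 10 of 80 Sohlh1-positive Zp3-low cells (12.5%, 6.16 to 21.8%) and 25 of 47 Zp3-positive cells (53.2%, 38.1 to 67.9%). The mean level was 2.03, 4.74 and 32.4 TPM, with SDs over cells of 6.71, 14.6 and 40.4. Where it was detected it was never faint, since the lowest of the 36 cells had 8.45 TPM and their median was 48.99 TPM, with a highest of 155. In 85 cells no read was assigned to it and 17 had reads that stayed under 1 TPM. The log2 ratio between these classes was 2.54 (2.42 to 2.81), 5.81-fold in mean TPM + 1, and it was 0.92 (0.65 to 2.51) from Sohlh1-low cells, where 1 cell carries the base level. That first value was 0.47, inside 1.5-fold, when TPM were scaled to the spike-ins, and -0.23 when both class limits were set to 50 TPM. Along the 5 bins of the order, 4, 2, 1, 8 and 21 cells had Pou5f1. Its reads carried the length of the full transcript Pou5f1-201, 1362 bases, in 31 of the 36 cells with at least 10 reads, which held 93.4% of these reads. Its closest paralogue in the table, Pou5f2, had means of 0.01, 1.36 and 2.44 TPM, and the octamer factor Pou2f1 was present throughout, at 96.2, 134.6 and 175.8 TPM.

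Sall4, a zinc finger protein that works with Pou5f1 in stem cells, followed the same classes. It was detected in 2 of 11, 7 of 80 (8.75%, 3.59 to 17.2%) and 31 of 47 cells (65.96%, 50.7 to 79.1%), with means of 2.64, 2.44 and 20.3 TPM. Among Zp3-positive cells the lowest was 0, the median 15.5 and the highest 77.4 TPM. The log2 ratio of Zp3-positive over Sohlh1-positive Zp3-low cells was 2.63 (2.54 to 2.94), 6.20-fold in mean TPM + 1, and there was no such step before it, at -0.08 (-0.39 to 1.07). This value was 1.39 without the 20% of cells with fewest reads. In the last bin of the order 25 of 27 cells had Sall4, against 3, 2, 4 and 6 cells in the earlier ones. Its relatives were low, with Sall1 and Sall3 at means of at most 0.174 and 0.769 TPM in any class.

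The Sall4 gene lies at chr2:168748332-168767943 on the minus strand. Its full transcript, Sall4-201, has 5073 bases in 4 exons and 1067 codons. Sall4-202 has 2534 bases and 278 codons, because it joins the first exon directly to the exon at chr2:168752454-168752740 and leaves out the large exon at chr2:168754434-168756800 (2367 bases), which carries zinc fingers. Sall4-203, at 3741 bases, keeps part of it. The 50 bases around the junction are shown with the first exon in small letters and the start of the next in capitals.
Sall4-201 and Sall4-203: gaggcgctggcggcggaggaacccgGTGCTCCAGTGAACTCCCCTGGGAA
Sall4-202: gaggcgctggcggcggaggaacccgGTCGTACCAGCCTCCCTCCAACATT
The length carried by the reads was worked out from the deposited reads, effective length and TPM of a cell. It was that of Sall4-202, within 2 bases, in 32 of the 43 cells with at least 10 Sall4 reads, which held 79.2% of the reads. Among Zp3-positive cells this was 24 of 33, and the other 9 had lengths between 2534 and 3637 bases. No cell carried the 5073 bases of Sall4-201. The estimates divide reads among forms by software, the forms share their other exons, and reads were not counted here at the junction, so this is a description of the deposited estimates.

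Lin28a was lower in level than Pou5f1 and Sall4 but split the cells in much the same way. No read was assigned to it in any of the 11 Sohlh1-low cells, which allows a share with detection of up to 28.5%. It was detected in 11 of 80 (13.8%, 7.07 to 23.3%) and 27 of 47 cells (57.4%, 42.2 to 71.7%). The means were 0, 1.29 and 4.50 TPM and no cell exceeded 24.3 TPM. Zp3-positive cells had a log2 ratio of 1.26 (1.15 to 1.46) over Sohlh1-positive Zp3-low cells, a 2.40-fold higher mean on the TPM + 1 scale, which understates the change of a gene this low. Lin28b, the paralogue with the same let-7 function, had another pattern, with means of 9.50, 11.9 and 7.55 TPM and a log2 ratio of -0.59 (-0.90 to -0.48) at the second step, which was 0.013 with spike-in scaling. The reads of Lin28a carried the 3505 bases of Lin28a-201 in 28 of 36 cells.

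**Figure D4:**
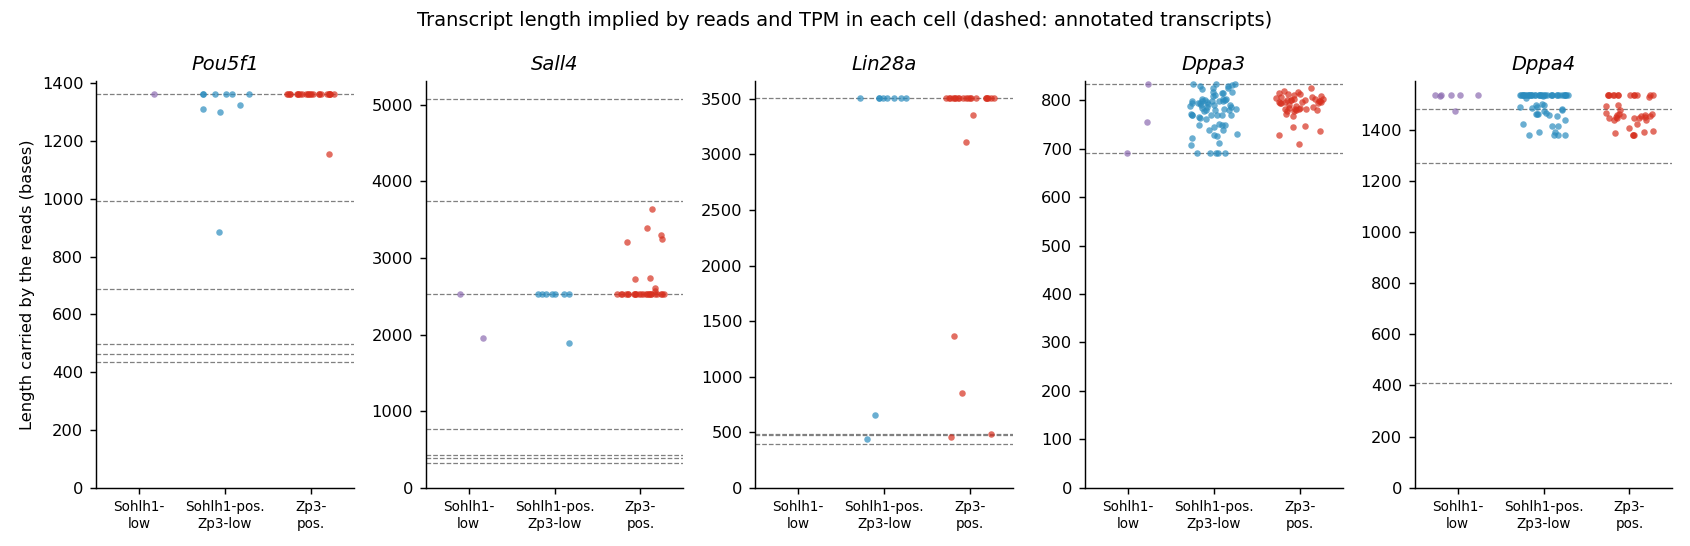
Transcript length carried by the reads (y axis, bases) in each cell with at least 10 reads of the gene, by class; points are cells and dashed lines are annotated transcripts. Most Sall4 points lie on the line at 2534 bases and none at 5073, whereas most Pou5f1 and Lin28a points lie on their longest transcripts, at 1362 and 3505 bases.

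Pou5f1, Sall4 and Lin28a occurred together in Zp3-positive cells. All 3 were detected in 17 of 47 Zp3-positive cells, exactly 2 in 10, 1 in 12 and none in 8. Of the 80 Sohlh1-positive Zp3-low cells, none had all 3, 5 had 2 and 57 had none. Within Zp3-positive cells, Sall4 was found in 21 of the 25 with Pou5f1 (84%) and in 10 of the 22 without it (45.5%), and Lin28a in 19 of 25 (76%) and 8 of 22 (36.4%). Dppa4 was found in 25 of 25 and 16 of 22. The cells share 1 sample, and these overlaps are given as counts only.

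Zp3 itself spans a wide range in the Zp3-positive cells, and the genes differed along it. In the 24 cells with more Zp3 (333 to 1454 TPM), Sall4 was detected in 21, Lin28a in 16, Pou5f1 in 15 and Dppa2 in 6. In the 23 cells with less Zp3 (10.3 to 332 TPM) the counts were 10, 11, 10 and 0. Mean Dppa3 was 1904 TPM in the former and 1070 in the latter, mean Dppa5a 118.2 and 67.2, and mean Dppa4 32.9 and 41.99 TPM. Mean Lin28a was nearly the same in both, at 4.58 and 4.41 TPM.

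Dppa3 (Stella, PGC7), a maternal protein that protects the DNA methylation of the egg genome after fertilization, had the largest log2 ratio among the 10 at the first step. At the second step Sall4 (2.63) and Pou5f1 (2.54) had larger ratios of mean TPM + 1. The Dppa3 gene lies at chr6:122626410-122630272, 77216 bases from Nanog, with Gdf3 on its other side. Its level was 0 to 12.2 TPM in the 11 Sohlh1-low cells (median 0.635), 0 to 4199 TPM in Sohlh1-positive Zp3-low cells (median 237) and 119.2 to 6054 TPM in Zp3-positive cells (median 1364). The Sohlh1-low and Zp3-positive ranges did not overlap, and the class between them overlapped both. Mean levels were 3.24, 434 and 1496 TPM. The log2 ratio was 6.68 (6.51 to 7.03) at the first step, which is 102.7-fold in mean TPM + 1. It was 1.78 (1.68 to 1.95) at the second, which is 3.44-fold in mean TPM + 1. With class limits of 50 TPM the first was 2.12, and with spike-in scaling the 2 values were 6.33 and 2.68. Among 19780 coding genes the mean of Dppa3 ranked 9095, then 271, then 39. Nanog and Gdf3, its neighbours, did not share this course, with Nanog means of 0.10, 0.23 and 0.41 TPM and Gdf3 at 1.959, 2.147 and 3.07 TPM.

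Dppa3 rose along the order of cells more closely than almost any gene. Its mean was 14.7, 181, 675, 1064 and 1925 TPM over the bins of the order. Its Spearman's rho with the order was 0.89 over all germ cells. By signed rho this was second of 6659 genes, after Ldhb (0.91) and before Tmsb10 (0.88), where the median gene had -0.03. It was 0.09 within Sohlh1-low, 0.87 within Sohlh1-positive Zp3-low and 0.68 within Zp3-positive cells. The 3 genes whose levels were most like Dppa3 across cells were Tmsb10 (rho 0.88), a thymosin that binds actin monomers, Ldhb (0.87), a subunit of lactate dehydrogenase, and Serf2 (0.86). Over all germ cells the rho of Dppa3 was 0.21 with reads assigned to genes, -0.24 with spike-in TPM, 0.17 with the mitochondrial share of reads and 0.20 with the number of coding genes detected. Within the 3 classes these values ran from -0.29 to 0.33, -0.43 to 0.14, -0.37 to 0.26 and -0.38 to 0.71. The order was built without Dppa3, but the cells share libraries, composition and 1 source, so these values are descriptions. Within the 80 Sohlh1-positive Zp3-low cells alone, the mean was 49.6 TPM in the first 27 in order, 345 in the next 27 and 926 in the last 26, and 19, 27 and 26 of them had the gene. Reads carried lengths between its 2 annotated transcripts of 691 and 833 bases, with a median of 790. The pseudogene Dppa3-ps had means of at most 0.02 TPM.

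**Figure D5:**
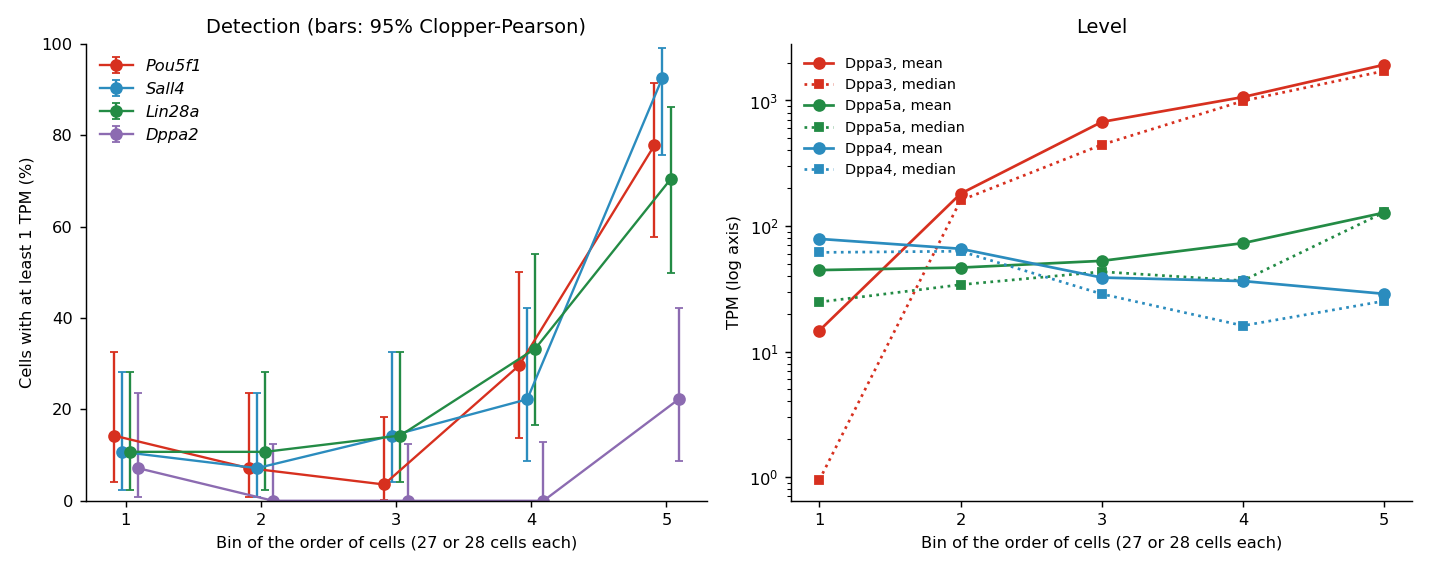
Left, share of cells with at least 1 TPM (y axis, %) in 5 successive bins of the order of cells for Pou5f1, Sall4, Lin28a and Dppa2, with 95% Clopper-Pearson intervals; right, mean (circles) and median (squares) TPM on a log axis for Dppa3, Dppa5a and Dppa4. Detection of Sall4 goes from 6 of 27 cells in the fourth bin to 25 of 27 in the last, mean Dppa3 from 14.7 to 1925 TPM, and mean Dppa4 from 78.9 down to 28.8 TPM.

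Dppa4 and Dppa2 are neighbours on chromosome 16 (chr16:48283733-48294237 and chr16:48303908-48319723, 9670 bases apart), and their DNA-binding SAP domain proteins act as a pair in stem cells and early embryos. All 8 cells with Dppa2 also had Dppa4, but most cells with Dppa4 lacked Dppa2. Dppa4 was detected in 7 of 11, 62 of 80 (77.5%, 66.8 to 86.1%) and 41 of 47 cells (87.2%, 74.3 to 95.2%), whereas Dppa2 was detected in 0, 2 and 6. The Dppa2 cells had 35.6 and 18.2 TPM in the Sohlh1-positive Zp3-low class, both in the first bin of the order, and 70.6, 47.8, 9.13, 8.08, 2.10 and 2.07 TPM in the Zp3-positive class, all in the last bin. Its second-step log2 ratio of 1.26 ranged from 0.60 to 1.70 as single cells were left out and was 0.38 with a mean of logs. Dppa4 had means of 65.9, 55.3 and 37.4 TPM and medians of 35.7, 47.8 and 25.0, with a highest of 252. Its log2 ratios were -0.25 (-0.38 to 0.07) and -0.55 (-0.74 to -0.49), neither of which reached 1.5-fold. The second was -0.07 with spike-in scaling and -0.91 with medians, and the first turned to 0.51 with a mean of logs. A larger difference lay inside the Sohlh1-positive Zp3-low class, where mean Dppa4 was 79.4, 58.1 and 27.1 TPM in the 27, 27 and 26 cells in order, and 25, 23 and 14 of them had it. Dppa3 went the other way in the same cells. The rho of the pair was -0.34 over all germ cells, -0.44 within this class, -0.20 within Zp3-positive cells and 0.05 within Sohlh1-low cells. Dppa4's closest genes were Ajuba (rho 0.46), a LIM-domain protein, Polr3d (0.41), a subunit of RNA polymerase III, and the histone deacetylase Hdac1 (0.41), which is well below the likeness found for Dppa3. Its reads carried 1378 to 1534 bases, with a median of 1534 in both Zp3-low classes and 1457 in Zp3-positive cells. No GENCODE M21 transcript of Dppa4 has 1534 bases. The authors may have used another annotation release, which bears on every transcript name matched to a length here.

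Dppa5a (Esg1), a KH-domain RNA-binding protein of stem cells, was present in every class. It was detected in 10 of 11, 67 of 80 (83.8%, 73.8 to 91.1%) and 43 of 47 cells (91.5%, 79.6 to 97.6%). Medians were 15.5, 39.9 and 71.9 TPM and means 48.2, 56.7 and 93.3 TPM, with a highest of 439 TPM, and the ranges of all 3 classes overlapped. The second step had a log2 ratio of 0.71 (0.64 to 0.83), 1.63-fold in mean TPM + 1, and the first 0.23 (0.10 to 0.92). Along the order the mean was 44.5, 46.6, 52.7, 72.99 and 127.7 TPM. Its rho with Dppa3 was 0.46 over all germ cells, -0.08 within Sohlh1-low, 0.21 within Sohlh1-positive Zp3-low and 0.68 within Zp3-positive cells. Its closest genes were Cox6a1 (0.67), a subunit of cytochrome c oxidase, the actin-binding profilin gene Pfn1 (0.60) and the ribosomal protein gene Rpl35 (0.58). In every cell with at least 10 reads, these carried the 619 bases of its single transcript.

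Nanog stayed low in level, and Sox2 and Utf1 were rare. Nanog was detected in 0, 6 and 3 cells of the classes, 6.52% of all (3.03 to 12.0%), and the highest cells had 5.13 and 3.21 TPM, both Zp3-positive. Another 75 cells had Nanog reads below 1 TPM. When each cell was thinned to 1000000 reads, 2, 18 and 17 cells of the classes kept a Nanog read, against 1, 12 and 26 for Pou5f1. Sox2 was detected in 1 cell, a Sohlh1-low cell second in the order, at 18.02 TPM (226 reads), and 2 other cells had Sox2 reads, both under 1 TPM. The log2 ratio of -1.40 at the first step rests on that cell and is 0.00 without it. Utf1 was detected in 1 Sohlh1-positive Zp3-low cell, at 38.3 and 40.5 TPM in its 2 libraries, and no other cell had a Utf1 read. Pou5f1 and Nanog were detected together in 2 cells, and no cell had Pou5f1 and Sox2.

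Around the 10 genes, 33 other regulators of pluripotency and of primordial germ cells were listed. Of the 17 whose mean reached 1 TPM, 7 were at least 1.5-fold higher and 8 lower in Sohlh1-positive Zp3-low than in Sohlh1-low cells (32.1% and 21.9% of all coding genes), and at the second step 5 of 16 were higher and 6 lower (17.7% and 28.3% of all). The second split was 7 higher and 4 lower with CPM (reads per 1000000 assigned) and 9 higher and 3 lower with spike-in scaling. The median log2 ratio of all coding genes also moved, from -0.18 in TPM to -0.02 and 0.46. The changed splits are therefore not given as a result about the listed genes. Of the 8 lower at the first step, 5 (Klf2, Tfcp2l1, Prdm1, Tet1 and Tet2) came inside the limit when a single cell was left out, as did Prdm1, Tfap2c, Klf4 and Lin28b at the second. Klf2, Tet1, Nr0b1, Tfap2c and Nanos3 at the first step and Tet1, Klf5 and Nanos3 at the second reached 1 TPM only in the class where they are high. Tcl1, a cofactor of the kinase Akt, had means of 6.22, 84.1 and 185 TPM, Trim71, a target of let-7, 4.15, 23.96 and 45.5 TPM, and Stat3, the transcription factor of LIF signalling, 31.8, 185 and 220 TPM. Those 3 were higher at the first step, with log2 ratios of 3.56, 2.28 and 2.504, and Tcl1 and Trim71 at the second too, with 1.13 and 0.90. The Sohlh1-low mean of Tcl1 rests on 1 cell with 66.9 TPM (class median 0.14), and the first ratio ranged from 3.44 to 6.21 as single cells were left out. Fbxo15, a target of Pou5f1 and Sox2 in stem cells, went down through the classes, from 91.9 to 46.9 and 7.56 TPM, and Zfp42 (Rex1) from 50.4 to 17.1 and 8.97 TPM. Their log2 ratios were -0.96 and -1.51 at the first step and -2.48 and -0.86 at the second, where spike-in scaling gave -1.82 and -0.44. Tet2, an enzyme that oxidizes 5-methylcytosine, had means of 33.3, 17.95 and 17.8 TPM. For Tfcp2l1 the means were 13.5, 7.91 and 12.1 TPM, and the first log2 ratio, -0.71, ranged from -1.23 to -0.00 as single cells were left out. Fgf4, Prdm14, Dnmt3l, Nodal, Otx2, Eras and Sall2 were not among the genes with a mean of 1 TPM. The 17 and 16 genes had a median log2 ratio of 0.09 and 0.31, beside 0.10 and -0.18 over all coding genes.

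A further 7 genes of the pathway in which Dppa3 works were listed as well, and 4 of 7 were higher at the first step (32.1% of all coding genes) and 1 at the second (17.7% of all), where the count lies near its background. Zfp57, a zinc finger protein that guards methylated imprints, had means of 2.84, 96.7 and 291 TPM and was higher at both, with log2 ratios of 4.67 and 1.58. The Sohlh1-low mean of Zfp57 also rests on 1 cell, at 30.4 TPM (class median 0.08), and the first ratio ranged from 4.56 to 6.49 as single cells were left out. Tet3, the oxidase of the fertilized egg, stood at 2.23, 10.998 and 13.7 TPM, Ehmt2, which places the H3K9 dimethyl mark that Dppa3 binds, at 30.8, 60.4 and 49.2 TPM, and Kpnb1, an importin, at 5.79, 13.3 and 11.05 TPM. Uhrf1, the factor that Dppa3 keeps from chromatin, had 30.9, 44.6 and 65.1 TPM, and its partner, the maintenance methyltransferase Dnmt1, had 34.6, 50.3 and 53.1 TPM, and neither differed by 1.5-fold at either step in TPM. With spike-in scaling both did, with log2 ratios of 0.70 and 0.71 at the first step and 1.36 and 0.62 at the second. That scaling moved all genes, and the median over all coding genes was 0.12 and 0.46 at these steps. Trim28, the corepressor that Zfp57 recruits, had 190, 176 and 140 TPM. Of 13 genes of the 2-cell embryo that Dppa2 and Dppa4 act on, only Zscan4f and Usp17la reached a mean of 1 TPM in any class, both in Sohlh1-low cells through 1 cell.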

How the data were processed

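Single germ cells were profiled by Smart-seq2 from mRNA, 146 libraries in all. Per the labels and the study's methods, the authors checked reads with FastQC and quantified them with Salmon (sequence bias corrected) on mm10 transcripts and 92 spike-ins. They deposited, per gene symbol and library, TPM (which sum to 1000000 per library with spike-ins and mitochondrial genes included) and estimated counts of reads that are not normalized and need not be whole. TPM depend on the other RNA in a cell. The deposited length of a gene with several transcripts was often only a fraction of the length carried by its reads. That fraction varied by gene and cell, from 0.5 to 1 for Dppa3, and was 1 for Dppa2. The deposited lengths were therefore not read as transcript lengths here. The 10 genes, the gene lists and the classes were chosen with earlier results of these data known. Pou5f1 helped to define the published clusters, so these were not used.

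Libraries correlating above 0.9 were averaged (7 pairs), and 1 library with Ddx4 below 1 TPM was left out. Coding genes (19780) and transcripts came from GENCODE M21 and RefSeq, and start regions from RefSeq (GRCm38.p6). Class differences are log2 ratios of mean TPM + 1, counted past 1.5-fold where either mean was at least 1 TPM. Detection means at least 1 TPM, and shares have exact (Clopper-Pearson) 95% intervals. Without labelled animals or plates, no replicate error, no batch and no test over cells could be had. Genes named are the 10, listed genes whose mean reached 10 TPM in a class, and the 3 nearest by Spearman's rho among 6683 genes that averaged 10 TPM or more and were detected in most cells. Gdf3, Pou2f1, Pou5f2, Sall1, Sall3, Dppa3-ps, the 2-cell genes and listed genes given only in counts fall outside that rule and were named after their values were seen. Alternatives were a pseudocount of 0.1 TPM, class limits of 1 and 50 TPM, 3 equal parts of the order, CPM (reads per 1000000 assigned), spike-in scaling, medians, a mean of logs, 2-fold, the library without Ddx4 RNA kept, the 20% of cells with fewest reads left out, each cell left out, and the repeated libraries counted apart. The calculations used Python 3.11.15, NumPy 2.4.6, pandas 2.3.3, SciPy 1.17.1 and matplotlib 3.10.9. Only the log2 ratio of the second step was tried on simulated data, for well-expressed genes without missed capture. That trial does not cover genes absent from most cells, the first step, detection, the order of cells or transcript lengths.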

Additional observations from a re-analysis of the deposited data

Results flagged for a closer look

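The library left out for its lack of Ddx4 RNA had 1408460 reads assigned to genes and held reads of Nanog, Sox2 and Sall4, which no comparison above uses. It was looked at because these genes stood above the limit that a count of 0 allows. Nanog had 9.32 estimated reads (3.29 TPM), Sox2 had 11 reads (4.14 TPM) and Sall4 had 30 reads (8.36 TPM), and the other 7 of the 10 genes had none. Sox2 was otherwise detected in 1 germ cell only. The germ cell markers Ddx4, Mael and Nobox had no read in it and Dazl, Sycp3 and Tex101 had 1 read each. Kitl, a pregranulosa marker, stood at 82.4 TPM, Foxl2 had no read, and the repeat-like gene Gm10800 alone took 84472 TPM.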

How the results depend on the processing

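Among the 10 genes, 6 were past 1.5-fold between Zp3-positive and Sohlh1-positive Zp3-low cells (the second step). All 6 were higher, and 3 of the 10 were not tested. Of all coding genes, 17.7% were higher and 28.3% lower. The count, in either direction, was 5 to 7 under the 12 alternatives, and 6 or 7 as each cell was left out. It was 6 with CPM, with spike-in scaling and with the repeated libraries counted apart. The share of all coding genes was not worked out for the alternatives. Their median log2 ratio moved from -0.18 to -0.02 with CPM and 0.46 with spike-in scaling, so these counts are not alike in background. At the first step 3 were higher and 1 lower, where 32.1% and 21.9% of all coding genes were. That count of 4 lay between 3 and 5 as each cell was left out, but was 1 (Dppa3) with a mean of logs and 2 (Dppa3 and Dppa5a) with medians. Of 240 values of the 10 genes under 12 alternatives, 212 kept their side of the limit, 17 fell inside it, 6 passed it and 5 turned their direction with the main or the new value past the limit. A sign that turned between values inside the limit, as for Dppa4 at the first step, is counted among the 212. These 5 all lie at the first step: Pou5f1 at -0.23 with class limits of 50 TPM, Sall4 at 0.80 with that limit, 1.69 with 3 equal parts of the order and 1.39 without the 20% of cells with fewest reads, and Dppa2 at -1.10 with these parts. Dppa4 passed the limit at the second step with medians (-0.91) and without the 20% of cells with fewest reads (-1.07), and Dppa5a fell inside it with class limits of 1 TPM (0.55). The genes around Dppa3 and of the 2-cell embryo past 1.5-fold at the second step numbered 1, and 2 with 3 equal parts, 3 with CPM and 6 with spike-in scaling (chosen after seeing the data), where the median of all coding genes moved from -0.18 to -0.13, -0.02 and 0.46. Of the listed genes named, some turned their direction: Tfcp2l1 (0.23), Uhrf1 (-0.60) and Kpnb1 (-0.11) at the first step with 3 equal parts of the order, Tet2 at the second with CPM (0.74), and Lin28b (0.013) and Kpnb1 (0.69) at the second with spike-in scaling. The rho of Dppa3 and Dppa5a was 0.46 over all germ cells, -0.08 within the Sohlh1-low class, 0.21 within the Sohlh1-positive Zp3-low class and 0.68 within the Zp3-positive class. Counting the repeated libraries apart was also chosen after seeing the data. The cause of each shift was not tested. No paired analysis was possible because the labels put all cells in 1 group and name no animal. With 11 Sohlh1-low cells, a gene detected in none of them may still be detected in up to 28.5% of such cells. This limit covers the sampling of cells, not mRNA that was missed within a cell.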

Other observations

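One Sohlh1-low cell, chosen after its values were seen, held RNA of genes known from the 2-cell embryo. Zscan4f stood at 45.4 TPM (556 reads) and Usp17la at 711 TPM (13111 reads) in it, and the next highest germ cell had 45.8 TPM of Usp17la. Among the 10 genes, Dppa5a was at 235 TPM in this cell, and Dppa2 and Dppa4, which act on these 2-cell genes in the embryo, had no read. Ddx4 was at 171 TPM. The next highest Usp17la cell was also the one with 35.6 TPM of Dppa2, and it had 11.8 TPM of Lin28a. The cell with Sox2 had neither Dppa4 reads nor Dppa5a above 0.308 TPM, although its Ddx4 level was 339 TPM.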
